A study of Mus musculus with 6 samples.

Results

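The clustered histone genes are the genes whose mouse symbols of the form Hist1h2an, Hist2h3b or Hist4h4 named the cluster and the histone class. Members were the rows of the expression table with such a name and a transcript type other than pseudogene. The table itself carried this form of name for 9 rows, of which 1 (Hist1h2al) was a pseudogene, which left 8 members. The other members stood in the table under newer symbols, and matching Ensembl identifiers to GENCODE M21, where the older symbols are still used, gave 56 more, so that 64 of the 33971 genes in the table were described here. All 64 had the same coordinates in the table and in GENCODE M21 (build GRCm38), and the values of the 8 members named by the table are given apart wherever a count leads. The genes Hist1h2aa, Hist2h2aa2 and Hist2h2bb were not analysed here.

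RNA sequencing of articular cartilage covered wild-type mice of 2 ages, with 3 libraries at 2 months (young) and 3 at 18 months (aged). The study's methods name male mice, and neither the labels nor the methods say how many mice went into a library, so the p-values below measure the spread between these libraries. The libraries held between 48171507 and 59085179 counts. They were made from RNA bound to oligo(dT) beads, which keeps RNA with a poly(A) tail, and the dUTP step of the protocol marked the strand.

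Histones are the proteins around which DNA is wound. A nucleosome core holds a pair each of H2A, H2B, H3 and H4, and the linker histone H1 binds the DNA where it enters and leaves the core. Most clustered genes are switched on in S phase, when new DNA must be packed, and most of their mRNAs end in a conserved stem-loop instead of a poly(A) tail. The stem-loop binding protein (SLBP) and the U7 small nuclear ribonucleoprotein act at that end. Several clustered genes can also make a longer, polyadenylated mRNA, which is known from differentiated cells that no longer divide, and oligo(dT) selection favours that form. Adult articular chondrocytes seldom divide.

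The labelled tissue was checked first, because it bears on every value below. Of 16 chondrocyte markers, all 16 were lower at 18 months, and their summed share of counts was 4.58% to 7.08% in the young libraries and 0.0635% to 0.170% in the aged ones. The most abundant of them, the cartilage matrix gene Chad, had a mean of 3836 ± 626 FPKM (SD, n = 3) at 2 months and 53.3 ± 55.1 at 18 months. In the opposite direction, the 13 erythroid markers measured took 0.0348%, 0.708% and 0.0830% of counts in young replicates 1, 2 and 3 and 2.81% to 3.69% in the aged libraries. For 14 neutrophil markers the young shares were 0.00172%, 0.564% and 0.0269%, against 4.31% to 4.63% at 18 months. Young replicate 2 therefore stood apart in blood cell markers, and aged replicate 1 kept the most chondrocyte marker counts of the aged libraries. Xist, which is transcribed from the inactive X chromosome of females, took 0.183% to 0.211% of counts in the young libraries and at most 5.39e-05% in the aged ones, so age and this sex-linked pattern cannot be told apart. In bulk tissue, fewer cells of a type and less RNA per cell cannot be told apart either.

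The stem-loop is shown first because it sets the members apart from other protein-coding genes. A match to its consensus (16 bases, a 6-base stem on each side of a 4-base loop) followed the stop codon within the annotated transcript of 45 of the 64 members, in 8 versions, the commonest shared by 25 members. Of the 19 without a match, 13 were annotated to end within 2 bases of the stop codon, so that the annotation stops before the place where a stem-loop would lie. Another 4 (H2bc4, H2bc21, Hist1h2bq and Hist1h2br) had no match although their longest annotated ends ran 742 to 2192 bases past the stop codon. H3c13 and H1f1 ended 37 and 48 bases past it without a match. The matches of 3 members of the table-named block, of the most abundant member H1f2 (Hist1h1c) and of H4c14 (Hist2h4), the member called lower with age, are printed 5′ to 3′ on build GRCm38 with the 16 matched bases in capitals and up to 5 flanking bases on each side. The coordinates are those of the matched bases.
Hist1h2ao, chr13:21810898-21810913, plus strand: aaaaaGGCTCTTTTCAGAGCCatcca
Hist1h4n, chr13:21831798-21831813, minus strand: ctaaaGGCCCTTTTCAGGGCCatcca
Hist1h2bp, chr13:21787923-21787938, plus strand: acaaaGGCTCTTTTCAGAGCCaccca
H1f2, chr13:23739512-23739527, plus strand: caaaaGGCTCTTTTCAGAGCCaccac
H4c14, chr3:96262939-96262954, minus strand: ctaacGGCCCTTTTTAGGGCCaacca
Hist1h2ao, Hist1h2bp and H1f2 carried the same 16 bases, although H1f2 was abundant at both ages and the other 2 had few counts at 2 months. H4c14 and Hist1h4n held different versions. In H1f2 the annotated transcript ran 840 bases past the stem-loop, in H4c14 it ran 1257 bases past it, and in Hist1h2ao it ended 31 bases after it.

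Promoters were read for 59 of the 64 members from RefSeq's table on build GRCm38.p6. The CCAAT box (CCAAT on either strand, its reverse reading being ATTGG) stood in the 250 bases upstream of 48 of these 59 (81.4%), against 33.9% of all 32851 promoters in the table. TATAAA on the gene's own strand stood in 39.0% of members and 7.59% of all promoters. The octamer ATTTGCAT or its reverse reading ATGCAAAT, known as the binding letters of OCT1, stood in 18.6% of members and 1.60% of all promoters. Classes differed in which letters they held: CCAAT was present in 16 of 16 H2A, 15 of 15 H2B and 6 of 6 H1 promoters but in 3 of 12 H4 promoters, and the octamer was found in 6 H2A and 5 H2B promoters and in no promoter of H1, H3 or H4. Upstream windows of 4 members whose values follow are printed with these letters in capitals, each from 250 bases before the start to the base before it.
H1f2, chr13:23738557-23738806, plus strand: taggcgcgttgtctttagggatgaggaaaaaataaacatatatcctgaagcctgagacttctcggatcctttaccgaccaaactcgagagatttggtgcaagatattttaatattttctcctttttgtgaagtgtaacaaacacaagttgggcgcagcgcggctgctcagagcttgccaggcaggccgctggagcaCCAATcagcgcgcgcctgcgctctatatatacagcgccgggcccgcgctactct
Hist1h2ap, chr13:21833476-21833725, minus strand: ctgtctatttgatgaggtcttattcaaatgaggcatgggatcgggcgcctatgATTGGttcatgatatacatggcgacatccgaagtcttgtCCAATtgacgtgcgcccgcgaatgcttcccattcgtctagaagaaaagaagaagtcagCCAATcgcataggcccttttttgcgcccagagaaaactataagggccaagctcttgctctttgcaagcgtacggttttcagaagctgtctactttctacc
Hist1h4m, chr13:21811496-21811745, plus strand: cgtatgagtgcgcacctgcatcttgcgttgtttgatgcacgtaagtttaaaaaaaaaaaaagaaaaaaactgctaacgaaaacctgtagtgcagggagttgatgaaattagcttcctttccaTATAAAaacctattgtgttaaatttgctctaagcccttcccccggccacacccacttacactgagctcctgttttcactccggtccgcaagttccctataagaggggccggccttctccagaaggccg
H3c10, chr13:21717378-21717627, plus strand: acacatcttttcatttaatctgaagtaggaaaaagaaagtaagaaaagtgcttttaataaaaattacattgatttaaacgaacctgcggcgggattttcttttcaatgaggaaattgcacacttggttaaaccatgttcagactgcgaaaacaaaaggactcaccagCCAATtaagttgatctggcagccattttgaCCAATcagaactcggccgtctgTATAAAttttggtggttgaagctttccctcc
The window of H1f2 held CCAAT once, that of Hist1h2ap 3 times, that of H3c10 (Hist1h3h) 2 times beside TATAAA, and that of Hist1h4m TATAAA without CCAAT. Some windows were copies of each other. Hist1h2bq and Hist1h2br shared all 250 bases, and Hist1h4m and Hist1h4n shared a run of 249. The longest run shared by Hist1h2ao and Hist1h2ap was 150 bases.

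**Figure D1:**
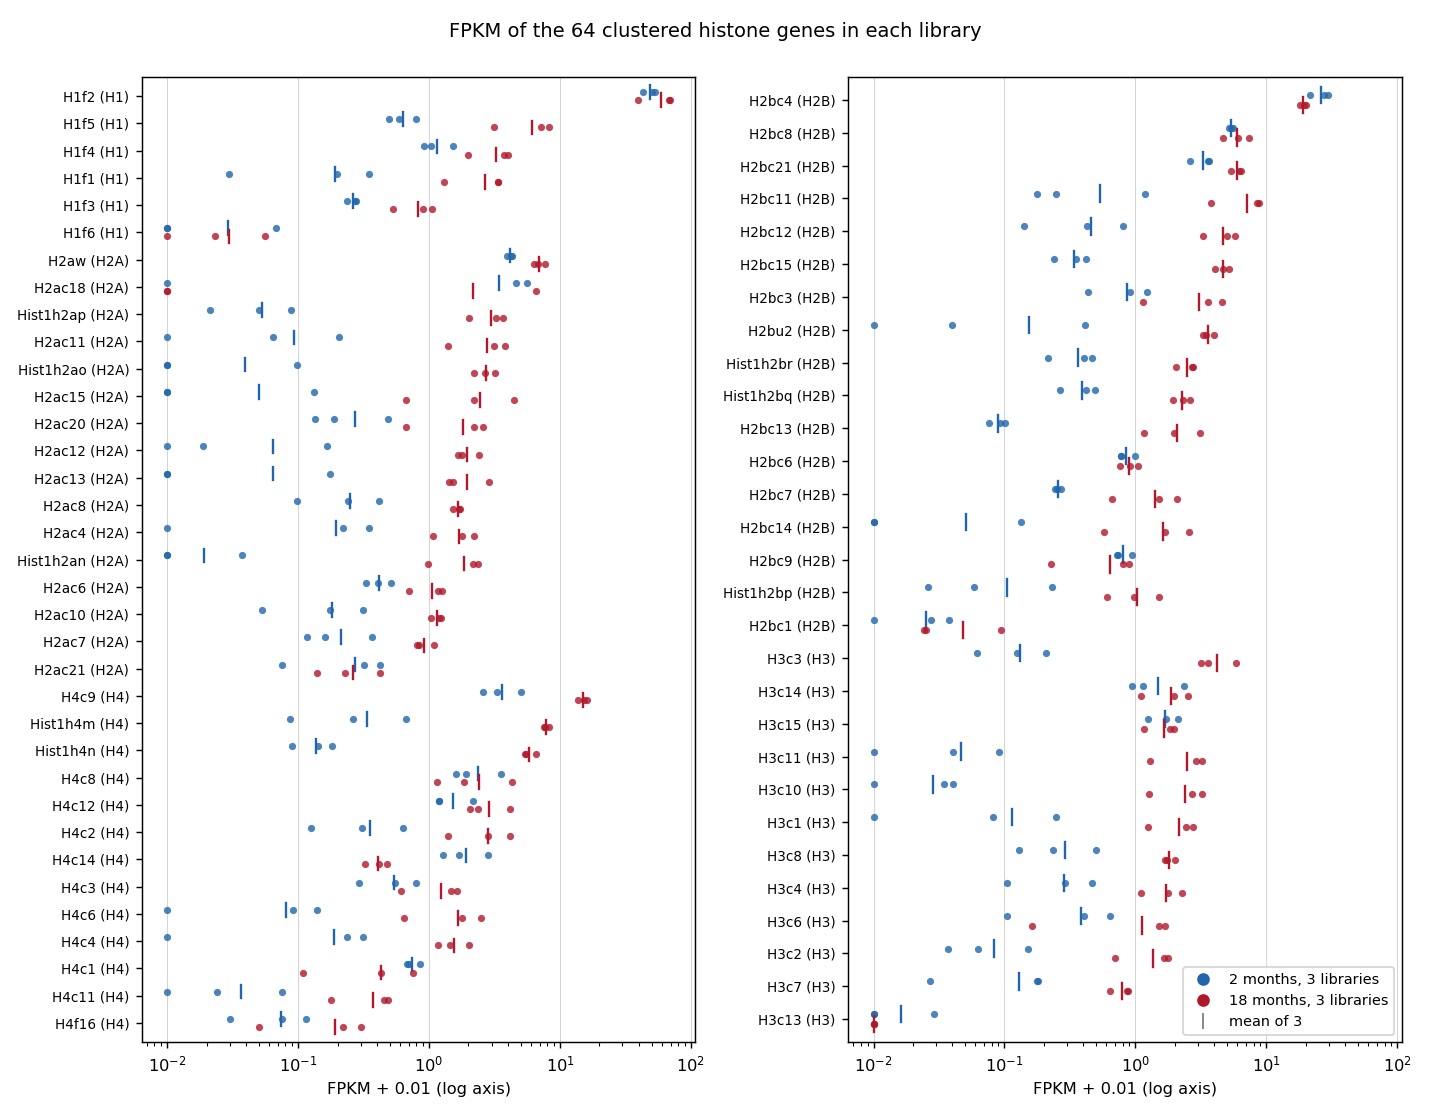
FPKM plus 0.01 on a log axis for each of the 64 clustered histone genes, with 1 point per library (blue 2 months, red 18 months) and a bar at the mean of the 3 libraries of an age. H1f2 and H2bc4 lie to the right at both ages, while most other members sit below 1 FPKM at 2 months and between 1 and 10 at 18 months.

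Together the 64 members took little of each library. Their share of counts was 0.0187%, 0.0165% and 0.0194% in young replicates 1, 2 and 3 and 0.0214%, 0.0328% and 0.0324% in the aged ones. Every aged library lay above every young one, although aged replicate 1 was only just above. The mean share was 1.59 times higher at 18 months, and the mean of the summed FPKM (fragments per kilobase of transcript and per 1e6 fragments, a level corrected for length and depth) went from 117 ± 6.36 (SD, n = 3) to 236 ± 56.3, which is 2.02 times. No test was made of these sums. The 8 table-named members alone took 0.000234%, 0.000281% and 0.000135% of counts at 2 months and 0.00190%, 0.00238% and 0.00255% at 18 months, a mean 10.5 times higher. A pair of genes made up most of the young total: H1f2 held 45.8% to 50.8% of the members' counts and H2bc4 (Hist1h2bc) 17.2% to 20.7%. At 18 months the same genes held 32.7% to 37.6% and 7.79% to 11.2%. Without H1f2 the share of the other 63 was 1.95 times higher at 18 months.

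**Figure D2:**
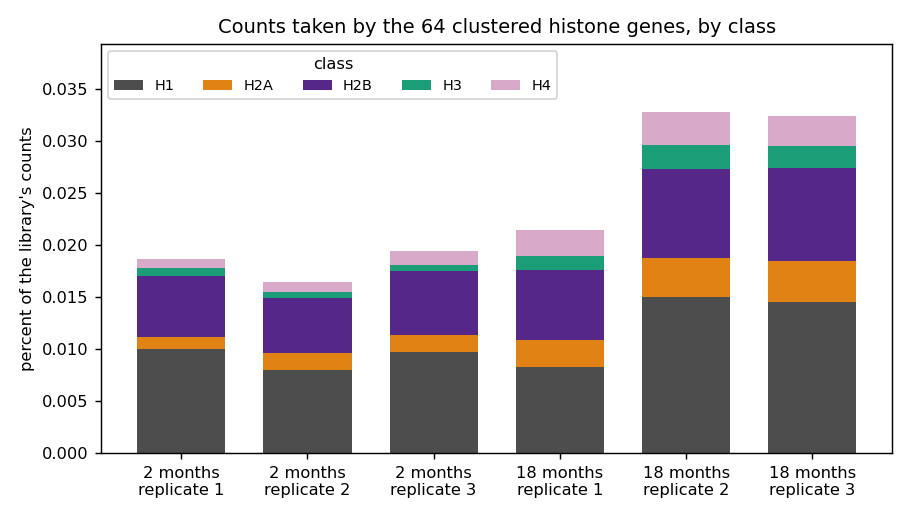
Percent of each library's counts taken by the clustered histone genes, stacked by histone class, for the 3 libraries of each age. The bars reach 0.0165% to 0.0194% at 2 months and 0.0214% to 0.0328% at 18 months, with H1 and H2B the tallest segments in every library.

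By class, the H1 genes took 0.00926% ± 0.00108 of counts (SD, n = 3) at 2 months and 0.0126% ± 0.00378 at 18 months, with overlapping libraries, since aged replicate 1 (0.00827%) lay below young replicates 1 and 3. H2B went from 0.00576% ± 0.000488 to 0.00807% ± 0.00119, H2A from 0.00147% ± 0.000259 to 0.00343% ± 0.000719, H4 from 0.00103% ± 0.000213 to 0.00283% ± 0.000333 and H3 from 0.000646% ± 0.000098 to 0.00192% ± 0.000478. In these 4 core classes no aged library fell within the young range. The mean share of the H3 genes was 2.97 times higher at 18 months, which was the highest ratio of the 5 classes, and that of H1 1.36 times, the lowest.

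Gene by gene, the ages were compared with edgeR's quasi-likelihood test over all 20397 genes that passed its filter on low counts. A gene was called where the Benjamini-Hochberg adjusted p was below 0.05 and the log2 fold change (18 months against 2 months) was above 1 or below -1. Of the 64 members, 59 were tested, 39 were called higher at 18 months and 1 (H4c14) was called lower. DESeq2 called 43 higher and 1 lower of 64, and limma on log2(FPKM + 0.1) called 42 and 1 of 61. Over all genes, DESeq2 called 4397 higher and 5159 lower of 33971, and limma called 4365 and 4259 of 21539. Among all genes tested by edgeR, 14.9% were called higher and 21.3% lower. These 2 shares are the ones to set beside the edgeR counts of calls below. The 8 table-named members were all called higher. The median log2 fold change was 2.65 over the 59 tested members and -0.02 over all genes tested, and with no filter it was 2.58 over the 64. In 44 of the 64 every aged library lay above every young library in its share of counts, in 2 every aged library lay below, and in 18 the ages overlapped. Over all genes tested, 35.6% and 32.9% were separated in these ways. Of the 59 tested members, 43 and 2 were.

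How the members came to be tested limits these counts. The filter asked for about 10 counts in 3 libraries, and 18 of the 59 had no young library at that level, so that they passed through the aged libraries alone and had to differ. All 18 were called higher, and all 18 belong to the members with a short annotated end described below. They were Hist1h2an, Hist1h2ao, Hist1h2ap, Hist1h4n, H2ac10, H2ac11, H2ac12, H2ac13, H2ac15, H2bc7, H2bc13, H2bc14, H3c1, H3c2, H3c3, H3c10, H3c11 and H4c6, and the p-values of these genes are to be read with that limit. Another 19 had 1 or 2 young libraries at that level, so they could pass only with the help of aged libraries. Of these 19, 14 were called higher, and their p-values carry part of that limit. The other 22 had all 3 young libraries at that level, with 7 called higher and 1 lower. The number called higher was 23 without aged replicate 2 and also 23 without aged replicate 3, the 2 aged libraries with more histone counts, and it was 31 to 40 when any other library was left out. Over all genes, 2119 of 21396 tested were called higher without aged replicate 2 and 2095 of 21365 without aged replicate 3. With all libraries it was 3047 of 20397. Aged replicate 1 was the lowest aged library in 35 of the 39. Young replicate 2, the library with more blood cell markers, was the highest young one in 22 of the 39. Without both of these libraries 44 of 61 tested members were called higher, among them all 39. In that setting the calls over all genes rose too, to 4931 higher of 20907 tested.

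**Figure D3:**
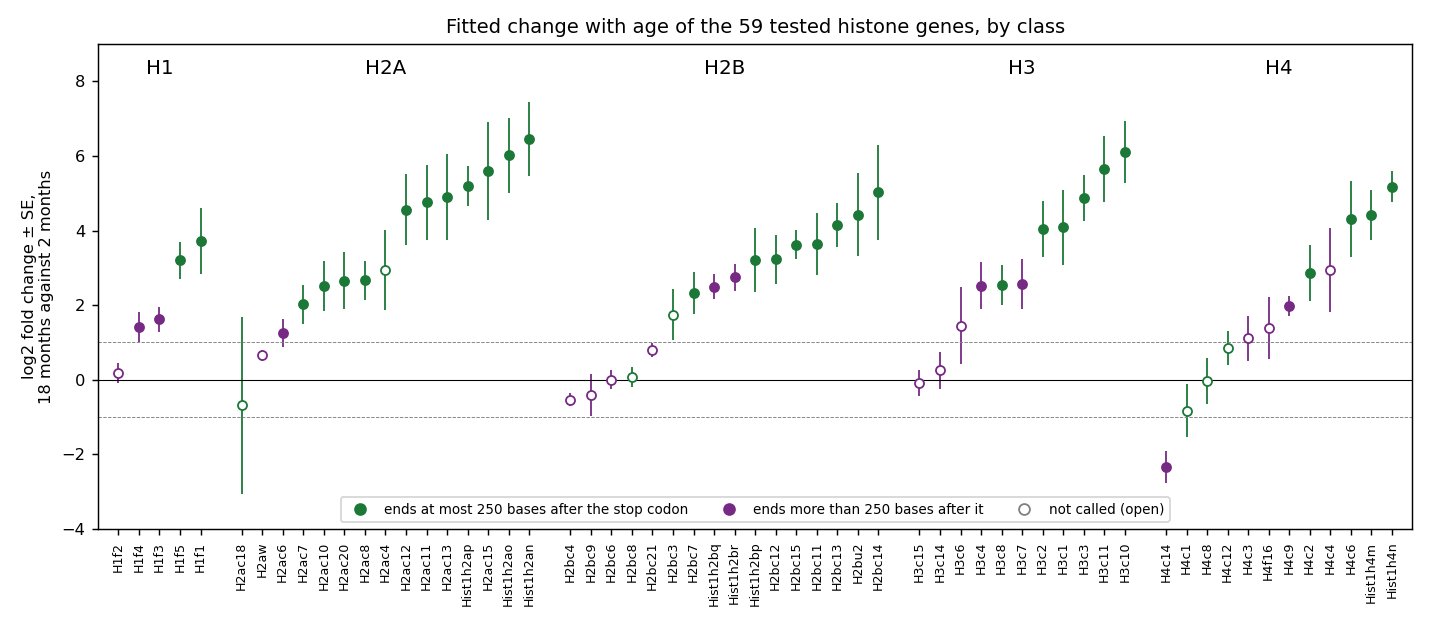
Fitted log2 fold change (18 months against 2 months) with its standard error for the 59 tested members, ordered within each class. Filled points were called and open ones were not, and colour gives whether the annotated transcript ends more than 250 bases after the stop codon. H4c14 is the only filled point below 0, and the highest points are Hist1h2an, H3c10 and Hist1h2ao.

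The 8 table-named members formed a block at chr13:21786826-21837530, within the large Hist1 cluster at chr13:21715763-23934156. They comprised 3 H2A, 3 H2B and 2 H4 genes. Hist1h2an (H2A, chr13:21786826-21787218, minus strand) had 0, 0 and 1 counts in the young libraries and 26, 58 and 55 in the aged ones. Hist1h2ao (H2A, chr13:21810465-21810944, plus strand) had 0, 3 and 0 counts against 71, 81 and 99, and Hist1h2ap (H2A, chr13:21833026-21833507, minus strand) had 2, 3 and 1 against 65, 98 and 112. These H2A genes were thus near the floor in each young library and well above it in each aged one. All 3 are among the members that passed the filter through the aged libraries alone and so had to differ. Their fitted log2 fold changes were 6.45 ± 0.99 (SE), 6.01 ± 1.02 and 5.20 ± 0.54, with adjusted p = 0.00424, 0.00555 and 0.00166. Fits on so few young counts depend on the prior count, so the ratio of summed shares is given too. It was 121 for Hist1h2an, with an exact 95% interval of 21.4 to 4820, 72.9 (24.7 to 356) for Hist1h2ao and 40.0 (18.1 to 110) for Hist1h2ap, where the intervals cover counting error only.

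The H2B and H4 genes of the block were also higher in every aged library than in any young one. Hist1h2bp (chr13:21787461-21789213, plus strand) had 1, 10 and 2 counts at 2 months and 29, 67 and 44 at 18 months. Its log2 fold change was 3.20 ± 0.86 (adjusted p = 0.0247). Hist1h2bq (chr13:21806612-21810197, minus strand) had 53, 49 and 29 counts against 261, 294 and 332, and Hist1h2br (chr13:21833743-21837530, plus strand) had 49, 59 and 26 against 305, 375 and 386. These 2 were the only members of the block with more than 25 counts in every young library. Their log2 fold changes were 2.50 ± 0.34 (adjusted p = 0.00292) and 2.74 ± 0.36 (adjusted p = 0.00282). Hist1h4m (chr13:21811746-21812147, plus strand) had 6, 16 and 2 counts against 207, 190 and 211, and Hist1h4n (chr13:21831767-21832196, minus strand) 2, 5 and 4 against 157, 149 and 180. Among the 8, Hist1h4m reached the highest aged level, 7.80 ± 0.377 FPKM (SD, n = 3), from 0.327 ± 0.295. Its log2 fold change was 4.42 ± 0.67 (adjusted p = 0.00412), and that of Hist1h4n was 5.17 ± 0.41 (adjusted p = 0.00107). Hist1h4n is also among the members that passed the filter through the aged libraries alone and so had to differ.

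Reads from these 8 genes cannot always be assigned to 1 of them. Of all 100-base windows of the annotated transcripts of Hist1h2bq, 94.8% also occurred in Hist1h2br, and 92.7% of those of Hist1h2ao occurred in Hist1h2ap. Hist1h4m shared 88.1% of its windows with Hist1h4n. The split of counts between such partners is therefore uncertain. Over all members, 27 fell into 6 groups, in which members were linked, directly or through other members, where at least 50% of the windows of 1 of a pair occurred in the other, the largest being 10 H2A genes that include Hist1h2an, Hist1h2ao and Hist1h2ap. When each group was summed before the fit, an alternative added after the data were seen, 24 of the 40 units tested were called higher and 1 lower. At the other end, H2bc21, H4c14, H1f5, H4c4, H1f6 and H1f1 shared no window with another gene, so their counts do not depend on such a split.

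The linker histone genes held the most abundant member. H1f2 (Hist1h1c, chr13:23738808-23740367), which encodes a somatic H1 found in most tissues, had 4586, 3898 and 4400 counts at 2 months and 4144, 6807 and 6707 at 18 months. Corrected for depth, aged replicate 1 (39.5 FPKM) lay below all young libraries (42.7 to 53.5 FPKM) and the other aged libraries lay above them, and the log2 fold change of 0.19 ± 0.27 was not called (adjusted p = 0.579). Its mean level was 48.8 ± 5.54 FPKM (SD, n = 3) at 2 months and 58.8 ± 16.7 at 18 months. The other somatic H1 genes were all called higher. H1f4 (Hist1h1e) had 109, 103 and 164 counts against 256, 455 and 492, and H1f3 (Hist1h1d) 93, 115 and 112 against 261, 489 and 423. Their log2 fold changes were 1.41 ± 0.40 (adjusted p = 0.0292) and 1.62 ± 0.33 (adjusted p = 0.00993). H1f4 overlaps H2bc6 on the same strand, and reads in the overlap could belong to either. H1f5 (Hist1h1b), known from dividing cells, had 33, 26 and 21 counts against 157, 383 and 339, with a log2 fold change of 3.20 ± 0.49 (adjusted p = 0.00413). H1f1 (Hist1h1a) had 14, 9 and 1 against 65, 158 and 158, with 3.72 ± 0.89 (adjusted p = 0.0173). In each of these 4 genes every aged library lay above every young one, and aged replicate 1 was the lowest aged library.

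Of the 16 H2A genes, 15 were tested and 12 were called higher. The median log2 fold change of the 15 was 2.94. Among the 12, Hist1h2an, Hist1h2ao, Hist1h2ap, H2ac10, H2ac11, H2ac12, H2ac13 and H2ac15 had passed the filter through the aged libraries alone. These genes therefore had to differ. By level, H2aw (Hist3h2a) came first. It lies at chr11:58954685-58956830, overlaps Trim17 on the same strand, and had 467, 530 and 518 counts at 2 months against 910, 1035 and 929 at 18 months. The ages were clearly apart, but its log2 fold change of 0.66 ± 0.15 (adjusted p = 0.0145) stayed under the limit of 1. H2ac18 (Hist2h2aa1) had 0, 193 and 153 counts against 0, 0 and 244. Its whole sequence also occurs in overlapping models, Gm20634 on the same strand and Gm20633 on the other, so its values are uncertain, as is the fitted log2 fold change of -0.69 ± 2.37 (adjusted p = 0.825). The remaining member not called was H2ac4 (Hist1h2ab), with 6, 0 and 10 counts against 34, 66 and 54 and a log2 fold change of 2.94 ± 1.06 (adjusted p = 0.0615). Among the called H2A genes outside the table-named block, log2 fold changes ran from 1.26 ± 0.38 in H2ac6 (Hist1h2ac) to 5.59 ± 1.32 in H2ac15 (Hist1h2ak), the latter from 0, 3 and 0 counts to 18, 110 and 55.

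Of the 17 H2B genes, 16 were tested and 10 were called higher, with a median log2 fold change of 2.62. Of the 10, H2bc7, H2bc13 and H2bc14 had passed the filter through the aged libraries alone and so had to differ. H2bc4, the second most abundant member, had 1871, 1468 and 1778 counts at 2 months and 1413, 1409 and 1468 at 18 months. As a share of counts every aged library lay below every young one, and the log2 fold change was -0.54 ± 0.18 (adjusted p = 0.0466), within the limit on the fold. Its level was 26.2 ± 4.01 FPKM (SD, n = 3) at 2 months and 19.2 ± 0.886 at 18 months. H2bc8 (Hist1h2bg) had 177, 195 and 195 counts against 193, 284 and 238, and its log2 fold change of 0.07 ± 0.26 was not called (adjusted p = 0.828). H2bc21 (Hist2h2be), known from olfactory neurons, had 373, 549 and 539 against 942, 1016 and 1074. Its libraries did not overlap, and its log2 fold change of 0.79 ± 0.19 (adjusted p = 0.0166) stayed under the limit. H2bc6 (Hist1h2be) and H2bc9 (Hist1h2bh) had log2 fold changes of -0.0020 ± 0.25 and -0.40 ± 0.57. H2bc3 (Hist1h2bb) had 26, 13 and 35 counts against 39, 114 and 147 and was not called either (1.74 ± 0.69, adjusted p = 0.0782). The called H2B genes had from 0 to 59 counts per library at 2 months. H2bc14 (Hist1h2bm) had 0, 4 and 0 counts against 20, 85 and 56, with a log2 fold change of 5.03 ± 1.27 (adjusted p = 0.0205). H2bc11 (Hist1h2bj) reached the highest aged level among the called H2B genes, 7.04 ± 2.84 FPKM (SD, n = 3), from 0.529 ± 0.567. Its counts were 6, 33 and 5 against 118, 249 and 261.

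Among the 12 H3 genes, 11 were tested and 8 were called higher. Of the 8, H3c1, H3c2, H3c3, H3c10 and H3c11 had passed the filter through the aged libraries alone and so had to differ. H3c3 (Hist1h3c) had the highest FPKM over all 6 libraries, although H3c14 and H3c15 were above it at 2 months. It had 7, 2 and 5 counts at 2 months and 134, 142 and 236 at 18 months. Its level went from 0.122 ± 0.0739 to 4.20 ± 1.46 FPKM (SD, n = 3), with a log2 fold change of 4.87 ± 0.61 (adjusted p = 0.00246). H3c10 had 1, 1 and 0 counts against 35, 83 and 72, and H3c11 (Hist1h3i) 1, 2 and 0 against 36, 84 and 76. The ratio of summed shares was 82.8 (exact 95% interval 22.6 to 689) for H3c10 and 57.0 (19.2 to 279) for H3c11, and the fitted log2 fold changes were 6.11 ± 0.84 and 5.65 ± 0.87. In the Hist2 cluster, H3c14 (Hist2h3c1) had 236, 122 and 97 counts against 243, 291 and 129, and H3c15 (Hist2h3c2) 69, 127 and 98 against 79, 118 and 128. Neither was called, with log2 fold changes of 0.25 ± 0.50 (adjusted p = 0.696) and -0.09 ± 0.35 (adjusted p = 0.838). All windows of H3c14 also occur in Gm20634, and H3c14 and H2ac18 moved in opposite ways between libraries, so these values are uncertain too. The last of the 3 not called was H3c6 (Hist1h3e), with 19, 5 and 30 counts against 9, 89 and 81.

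The H4 genes, which encode the same protein, ranged in log2 fold change from -2.35 to 5.17. Of 13, 12 were tested, 5 were called higher, 1 lower and 6 neither. Of the 5, Hist1h4n and H4c6 had passed the filter through the aged libraries alone and so had to differ. H4c9 (Hist1h4i, chr13:22040636-22041362) was the most abundant H4 gene, with 102, 213 and 135 counts at 2 months and 743, 730 and 634 at 18 months. Its level went from 3.61 ± 1.25 to 14.9 ± 1.17 FPKM (SD, n = 3), and its log2 fold change was 1.98 ± 0.27 (adjusted p = 0.00289). The only member called lower was H4c14 (Hist2h4, chr3:96261682-96263311), with 151, 121 and 256 counts against 35, 48 and 43. No aged library of H4c14 came near the young range, and its log2 fold change was -2.35 ± 0.43 (adjusted p = 0.00719). The chondrocyte markers were also lower in the aged libraries, and whether their loss has a part in this value was not tested. H4c1 (Hist1h4a) had 25, 22 and 21 counts against 4, 15 and 26 and was not called (log2 fold change -0.84 ± 0.71, adjusted p = 0.358). H4c8 (Hist1h4h) had 50, 44 and 93 against 37, 126 and 56, with overlapping ages and a log2 fold change of -0.04 ± 0.62 (adjusted p = 0.966). H4c12 (Hist1h4k), H4c3 (Hist1h4c) and H4c4 (Hist1h4d) had positive log2 fold changes of 0.84, 1.11 and 2.94 that were not called.

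By cluster, 37 of the 50 tested members of Hist1 on chromosome 13 were called higher, with a median log2 fold change of 2.90. Of these 37, 18 had passed the filter through the aged libraries alone and so had to differ. No member of the other clusters had, so the clusters do not compare like with like. The members called higher outside Hist1, H2ac20 and H2bu2, still needed aged libraries to pass, since not every young library was at the filter's level. In Hist2, at chr3:96219865-96269141, 6 of 8 were tested, 1 was called higher (H2ac20) and 1 lower (H4c14), and the median was 0.08. Over all genes tested, 14.9% were called higher and 21.3% lower. The share called higher was 74.0% in Hist1. In Hist2 16.7% were called higher and 16.7% lower, which is near the shares over all genes. H2ac20 (Hist2h2ac) had 4, 6 and 14 counts against 24, 84 and 74. Its log2 fold change was 2.65 ± 0.76 (adjusted p = 0.0311). The Hist3 pair at chr11:58948920-58956830 was H2aw, described above, and H2bu2 (Hist3h2ba). H2bu2 had 2, 15 and 0 counts against 135, 134 and 156, and was called higher with a log2 fold change of 4.42 ± 1.11 (adjusted p = 0.0203). The single Hist4 gene, H4f16 (Hist4h4, chr6:136801553-136804415), had 4, 18 and 11 counts against 41, 53 and 8. Its ages overlapped because aged replicate 3 lay among the young libraries, and its log2 fold change of 1.38 ± 0.84 was not called (adjusted p = 0.211). Whether the clusters differ was not tested.

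H2A and H2B genes often lie head to head and share the stretch between their starts. There were 11 such neighbours less than 1000 bases apart, with 175 to 301 bases between the starts. In 8 of the 11 both genes had a log2 fold change above 2. Each of these 8 pairs held a gene that passed the filter through the aged libraries alone and so had to differ. The other pairs held no such gene, so the count of 8 was partly set by the filter. The largest gap within a pair was in the table-named block, where Hist1h2ao had 6.01 and its neighbour Hist1h2bq 2.50 across 267 bases. In the pair of H2ac6 and H2bc4, 250 bases apart, H2ac6 was called higher at 1.26 ± 0.38 while H2bc4 had -0.54 ± 0.18. H2ac8 (Hist1h2ae) and H2bc8 stood at 2.66 ± 0.53 and 0.07 ± 0.26 across 175 bases. Part of the windows of each of these genes also occurs in other genes, so the split of counts is uncertain here too.

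Members known from testis were near absent at both ages. H1f6 (Hist1h1t), the testis-specific linker histone, had 3, 0 and 0 counts at 2 months and 1, 3 and 0 at 18 months. H2bc1 (Hist1h2ba), the testis-specific H2B, had 0, 1 and 1 against 1, 3 and 1. Both were at or under 3 counts in every library, so no fold is given. The other members not tested were H2ac21 (Hist2h2ab) with 2, 9 and 11 counts against 4, 12 and 7, H3c13 (Hist2h3b) with 1, 0 and 0 against 0, 0 and 0, and H4c11 (Hist1h4j) with 1, 3 and 0 against 9, 22 and 24. Of 6 other testis markers, 4 were tested, with 2 called higher and 1 lower, the most abundant being Ldhc at 1.87 ± 0.306 FPKM (SD, n = 3) at 18 months and 0.0254 ± 0.0440 at 2 months.

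**Figure D4:**
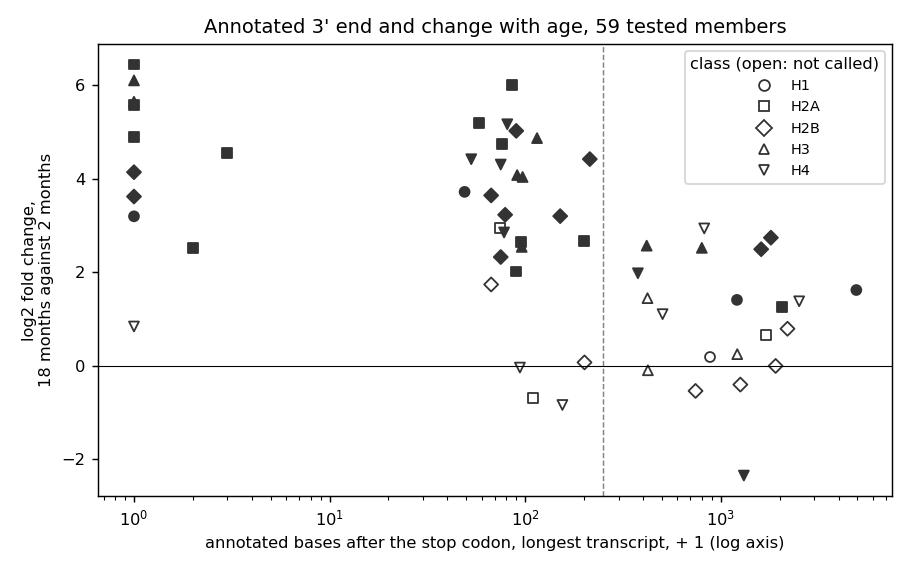
Annotated bases after the stop codon in the longest transcript, plus 1, on a log axis, against the fitted log2 fold change of the 59 tested members. Marker shape gives the class, filled markers were called, and the dashed line stands at 250 bases. Members to the left of the line range from -0.84 to 6.45, and those to the right from -2.35 to 2.94.

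Members also differed by where the annotation ends them. In 22 the longest annotated transcript ran 376 to 4931 bases past the stop codon (extended), and in 42 it ended at most 230 bases past it (short). The line between them, at 250 bases, was chosen after the values were seen, so the following is a description. Of 38 tested short members 31 were called higher, with a median log2 fold change of 3.68. With the members that had at most 3 counts in each young library set to 3 counts there, the median was 3.63. Of 21 tested extended members 8 were called higher and 1 lower, and the median was 1.26. These counts do not compare like with like, since 18 of the 31 had passed the filter through the aged libraries alone, and no extended member had. Among members with all 3 young libraries at the filter's level, 1 of 6 short ones was called higher and 6 of 16 extended ones were, with 1 lower. The short members took 0.000927%, 0.00148% and 0.00140% of counts in the young libraries and 0.00401%, 0.00705% and 0.00753% in the aged ones, and the extended members 0.0177%, 0.0150% and 0.0180% against 0.0174%, 0.0257% and 0.0249%. For the short members the ages were apart, whereas for the extended ones aged replicate 1 lay within the young range. A count table cannot say whether a read came from a polyadenylated mRNA, and a short annotated end does not count reads that lie beyond it.

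**Figure D5:**
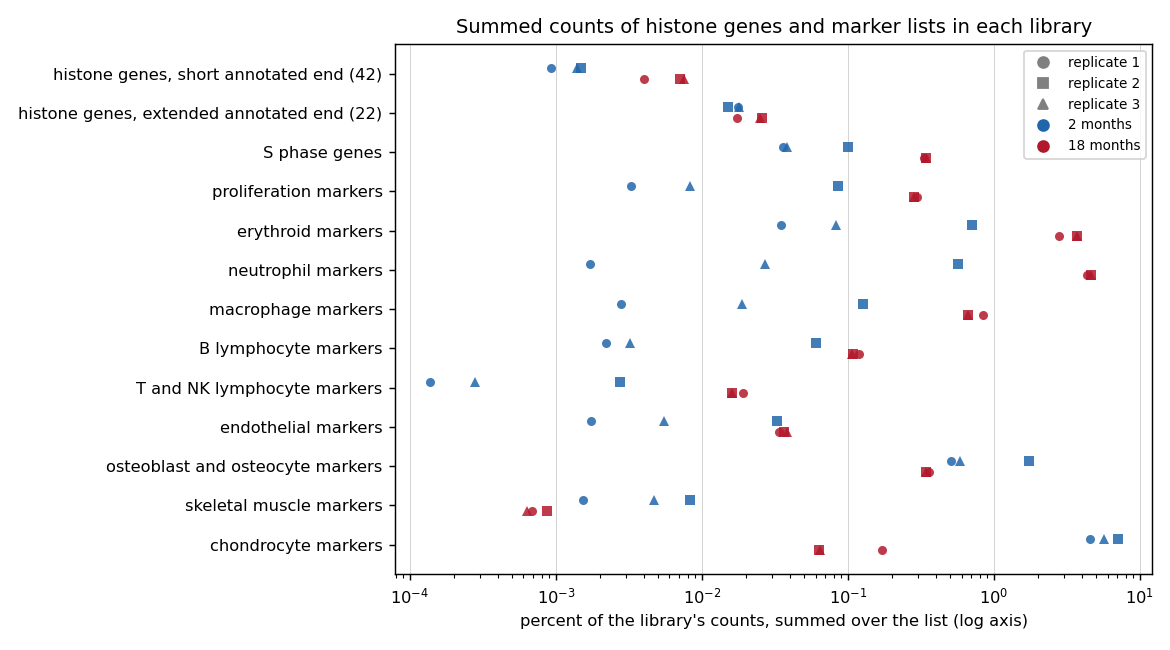
Percent of each library's counts, on a log axis, taken by the short-ended and the extended histone genes and by lists of marker genes, with 1 marker per library (shape gives the replicate, blue 2 months, red 18 months). The short-ended histone genes, S phase genes, proliferation markers and blood cell markers lie further right in all 3 aged libraries, and the chondrocyte markers further left.

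Genes that act in S phase and in dividing cells were mostly higher in the aged libraries too. Of 26 S phase genes, 25 (96.2%) were called higher, with a median log2 fold change of 2.65. Over all genes tested, 14.9% were called higher. Pcna, the sliding clamp of DNA polymerase, had 2119, 5989 and 2356 counts at 2 months and 22775, 23257 and 22843 at 18 months. The list's share was 0.0361%, 0.0994% and 0.0385% of counts in the young libraries and 0.331% to 0.343% in the aged ones. Of the 12 proliferation markers, 12 had positive log2 fold changes and 7 were called higher. Their young shares of 0.00329%, 0.0851% and 0.00830% spread widely, and Mki67 was not called (log2 fold change 3.01 ± 1.40, adjusted p = 0.118). Aged replicate 1, lowest in most histone genes, was the lowest aged library in S phase genes (0.331% against 0.343% and 0.342%) and the highest in proliferation markers (0.299% against 0.285% and 0.282%). Young replicate 2 was the highest young library in both lists and in the short histone genes. The part of dividing cells in the histone values was not tested.

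Blood and other cell markers varied by list. Over all genes tested, 14.9% were called higher and 21.3% lower. Of the erythroid markers 5 of 13 were called higher, of macrophage markers 4 of 10 tested, of T and NK lymphocyte markers 6 of 12 and of endothelial markers 1 of 8. The endothelial share, 12.5%, was under that of all genes. None of the 14 neutrophil or the 14 B lymphocyte markers was called by edgeR, with 2 and 1 at an unadjusted p under 0.05, while DESeq2 called 10 and 1 and limma on log2(FPKM + 0.1) called 13 and 3. In 13 of 14 neutrophil and 3 of 14 B lymphocyte markers every aged library lay above every young one. Over all genes tested, 35.6% were separated in this way. The most abundant genes of these lists were Hbb-bs (log2 fold change 3.78 ± 1.26), Lyz2 (4.31 ± 1.42), Nkg7 (5.18 ± 1.80, not called), Pecam1 (1.29 ± 1.05, not called), S100a9 (5.19 ± 2.25, not called) and Ighm (3.26 ± 1.23, not called). Of the osteoblast and osteocyte markers 3 of 10 were called lower, led in level by Ibsp (-3.05 ± 0.19), and of the skeletal muscle markers 5 of 7 tested, though the most abundant, Mylpf, was not (-0.59 ± 0.41). What part these cells have in the histone values was not tested.

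Histone genes outside the clusters, most of which are transcribed outside S phase as well and carry poly(A) tails, went in both directions. Of 12 tested, 7 (58.3%) were called higher and 3 (25.0%) lower, against 14.9% and 21.3% of all genes tested. The share called lower was thus near that of all genes. H2ax, whose protein is phosphorylated at DNA breaks, had 343, 1729 and 521 counts against 6152, 6964 and 6891, with a log2 fold change of 2.75 ± 0.58 (adjusted p = 0.0111). H2az1, which encodes H2A.Z, had 2.66 ± 0.34 (adjusted p = 0.00251), and H3f3a, 1 of the genes of H3.3, 1.81 ± 0.26 (adjusted p = 0.00333). H3f3b, which encodes the same H3.3 protein, had 0.66 ± 0.21 (adjusted p = 0.0400) and stayed under the limit. H1f0, the linker histone of cells that have stopped dividing, had 13679, 10543 and 11893 counts against 4048, 5518 and 5452. No aged library reached the young range, and it was called lower with -1.54 ± 0.24 (adjusted p = 0.00416). Macroh2a2 had the largest fall of the list, -2.27 ± 0.26 (adjusted p = 0.00190).

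Factors that transcribe and process histone mRNA were listed separately. Of 27 tested, 10 (37.0%) were called higher, against 14.9% of all genes tested. The median log2 fold change of the 27 was 0.41. Slbp, the stem-loop binding protein, had 1421, 3054 and 1639 counts at 2 months and 9126, 9128 and 9769 at 18 months, the largest rise of the list with 1.96 ± 0.26 (adjusted p = 0.00269). Npat, the coactivator of histone genes in S phase, had 0.41 ± 0.12 (adjusted p = 0.0345), under the limit on the fold. Snrpb, a protein of the Sm ring and the most abundant of the list, had 1.09 ± 0.11 (adjusted p = 0.00164). Among 27 histone chaperones and import factors, 10 (37.0%) were called higher and 1 (3.70%) lower, and the median was 0.84. Over all genes tested, the shares were 14.9% and 21.3%. Asf1b, which hands H3 and H4 to assembly factors in dividing cells, had 184, 1140 and 301 counts against 6078, 5925 and 5899, with 3.27 ± 0.66 (adjusted p = 0.00975). Ipo4, an importin that carries H3 and H4 into the nucleus, was the 1 called lower, with -1.28 ± 0.16 (adjusted p = 0.00250). Npm1, the most abundant, was not called (0.38 ± 0.14, adjusted p = 0.0676).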

How the data were processed

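Articular cartilage RNA was sequenced in 3 libraries at 2 months and 3 at 18 months, and libraries were grouped by the ages in the labels. The authors deposited 1 table with a read count and an FPKM value per gene and library. Per the labels, mRNA was selected with oligo(dT), and the submitters' processing notes name cutadapt 1.9, HISAT2 2.0.4, StringTie 1.3.4d, UMI-tools, DESeq2 and edgeR without their roles. The counting step, its strand setting and its treatment of reads with several matches are not given in the sources used here. Deposited counts were whole numbers, but of the 16 member values of 1 count, 14 had an FPKM worth under 0.9 of a read, so low counts may be rounded estimates. FPKM followed the full annotated transcript length (implied over annotated length 1.13 to 1.17).

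Counts were fitted with edgeR 4.0.16 (quasi-likelihood, TMM, filterByExpr, R 4.3.3) over all genes and tested on simulated data first. Genes were called at a Benjamini-Hochberg adjusted p below 0.05 and a log2 fold change beyond 1. Standard errors were derived from the fold change and F. Lists are described by counts and medians, with no test of a list. Members, lists and named genes were chosen with earlier results of these data known. Named were the 3 most abundant members per class, the 2 largest called changes per class in each direction, testis, Hist3, Hist4 and somatic H1 members, the members with the most and fewest shared windows, the most abundant gene of each list, and set genes of the histone lists. Windows were 100 bases of the annotated transcripts. Alternatives were DESeq2 1.42.0, limma 3.58.1, other scalings and filters, and leaving out each library. Replicates of an age differed by more than sampling noise. Intervals cover counting error only.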

Additional observations from a re-analysis of the deposited data

How the results depend on the processing

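All 39 members called higher kept a positive log2 fold change under every scaling, filter, tool and omission of libraries tried. They had been picked for a log2 fold change above 1 in the same counts, so the kept sign is no separate support. The number called higher was 28 (glmTreat against a fold change of 2) to 43 (DESeq2) with all libraries and unsummed genes, and 24 of 40 units with near-identical copies summed. With libraries left out it was 23 to 44, the last without both young replicate 2 and aged replicate 1. Summing copies and leaving out these 2 libraries together were chosen after seeing the data. Of the 8 table-named members 7 or 8 were called higher in each setting. Without the limit on the fold 2 members were lower, H4c14 and H2bc4. Short-ended members called higher numbered 19 to 33 with libraries left out and extended ones 4 to 11, and extended ones numbered 5 with limma on log2(FPKM + 1) and 3 with glmTreat.

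Over the S phase, histone variant, processing and chaperone lists together, 51 genes were called higher and 4 lower, and 28 and 2 with glmTreat. Among all genes, 3047 were higher and 4354 lower. Higher calls were 1366 with glmTreat and 4769 without the fold limit. With libraries left out they ran from 2095 to 5007. The 5007 came without young replicate 2, and 4931 came without both that library and aged replicate 1. Lower calls were 2217 with limma on log2(FPKM + 1) and 2667 with glmTreat. The log2 ratio of the members' mean share, 0.67, was 0.96 without H1f2 and 1.01 as a sum of FPKM. The summed FPKM ratio of 1.01 became 0.57 after rescaling FPKM to TPM, which also put the median of all genes at -0.33 on the log2 scale.

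Direction changed in 8 members, none of which was called. H4c8 had log2 fold changes of 0.016, 0.036 and 0.042 with median-of-ratios factors, total counts and DESeq2. H2bc6 had 0.050, 0.071 and 0.076 with the same, 0.025 with no filter, and 0.071 and 0.037 with limma on log2(FPKM + 0.1) and log2(FPKM + 1). With limma on log2(TPM + 0.1), H3c14 had -0.055, H2bc8 -0.31 and H1f2 -0.21. With libraries left out, values ran from -0.26 to 0.28 for H3c15, -9.92 to 0.41 for H2ac18, -0.036 to 0.79 for H3c14, -0.72 to 0.41 for H4c8, -0.71 to 0.017 for H2bc9, -0.093 to 0.25 for H2bc8 and -0.12 to 0.15 for H2bc6. The causes were not tested.

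Libraries of both ages carry the numbers 1 to 3, but same-numbered libraries did not deviate together (correlations of deviations 0.034, 0.044 and -0.024). With the number as a replicate block, 29 members were called higher, 5 of them with extended ends, and 1 lower. Depth limits the short-ended members most, since they made up 17 of the 19 members with 0 counts in at least 1 young library.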
